A study of Mus musculus with 4 samples.

Results

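C2 fibroblasts were 153 of the 8880 cells profiled from the mouse epididymis and vas deferens, and 153 of the 2222 stromal cells. The population was taken from the deposited annotation as it stands: a cell was included if the authors' table of cells placed it in the only final cell type that holds 153 cells, the stromal subcluster C2. No expression value was used to choose the cells here, but the authors built the subcluster from these counts, so differences from other populations are a description and were not tested. The material was from male FVB/NJ mice aged 10 to 12 weeks, with no treatment or genotype named. Epididymides and vasa deferentia from both sides of 4 mice (8 organs) were cut into caput, corpus, cauda and vas, the segments of a region were pooled and dissociated, and each pool gave 1 droplet library. Fat and surplus connective tissue were trimmed away before dissociation. With 1 library per region there are no replicates, no p-value is given, and intervals cover counting error only.

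Fibroblasts are the cells that lay down interstitial matrix, mainly type I and type III collagen and the small proteoglycans that bind it. They also secrete signals read by the epithelium, by smooth muscle and by immune cells, among them chemokines, WNT and BMP proteins, and the soluble antagonists of both families. In the epididymis the stroma lies between the coils of a single tube, and a contractile layer around the tube thickens towards the vas deferens, where smooth muscle moves sperm.

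C2 cells came from all 4 libraries, in unequal numbers. They were 4 cells of the caput library (0.279%, exact 95% interval 0.0761% to 0.713%), 36 of the corpus (1.55%, 1.09% to 2.14%), 74 of the cauda (4.58%, 3.61% to 5.72%) and 39 of the vas (1.11%, 0.792% to 1.52%). As a share of the stromal cells of each library they were 1.54%, 5.46%, 25.6% and 3.84%. The cauda share lay above the other shares on both denominators, by more than the counting error. The caput group of 4 cells is given by its values but was left out of counts of genes between libraries.

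The 4 stromal populations used for comparison were the 975 myofibroblasts (162 to 420 per library), the 549 stem-like stromal cells (517 of them from the vas), the 319 C4 fibroblasts, and the 226 secretory stromal cells (213 of them from the vas). C2 fibroblasts held 552572 UMIs, counts of distinct RNA molecules, with a median of 3325 UMIs per cell. The medians were 3821 in myofibroblasts, 1991 in stem-like stroma, 670 in C4 fibroblasts and 3065.5 in secretory stroma. Levels are UMIs of a gene per 1000000 UMIs of the group (UPM), with an exact Poisson interval where one is given. Ratios of levels carry an exact conditional binomial interval. A total of 43 cell barcodes occurred in more than 1 library, 2 C2 cells carried such a barcode, and 0 pairs of C2 cells shared one. A doublet caller run within each library marked 178 of all cells and 2 C2 cells, both from the vas. The number marked was set by an assumed rate. At that cut the caller recovered from 33.35% of simulated doublets in the cauda to 55.1% in the vas, so unmarked doublets can remain.

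**Figure D1:**
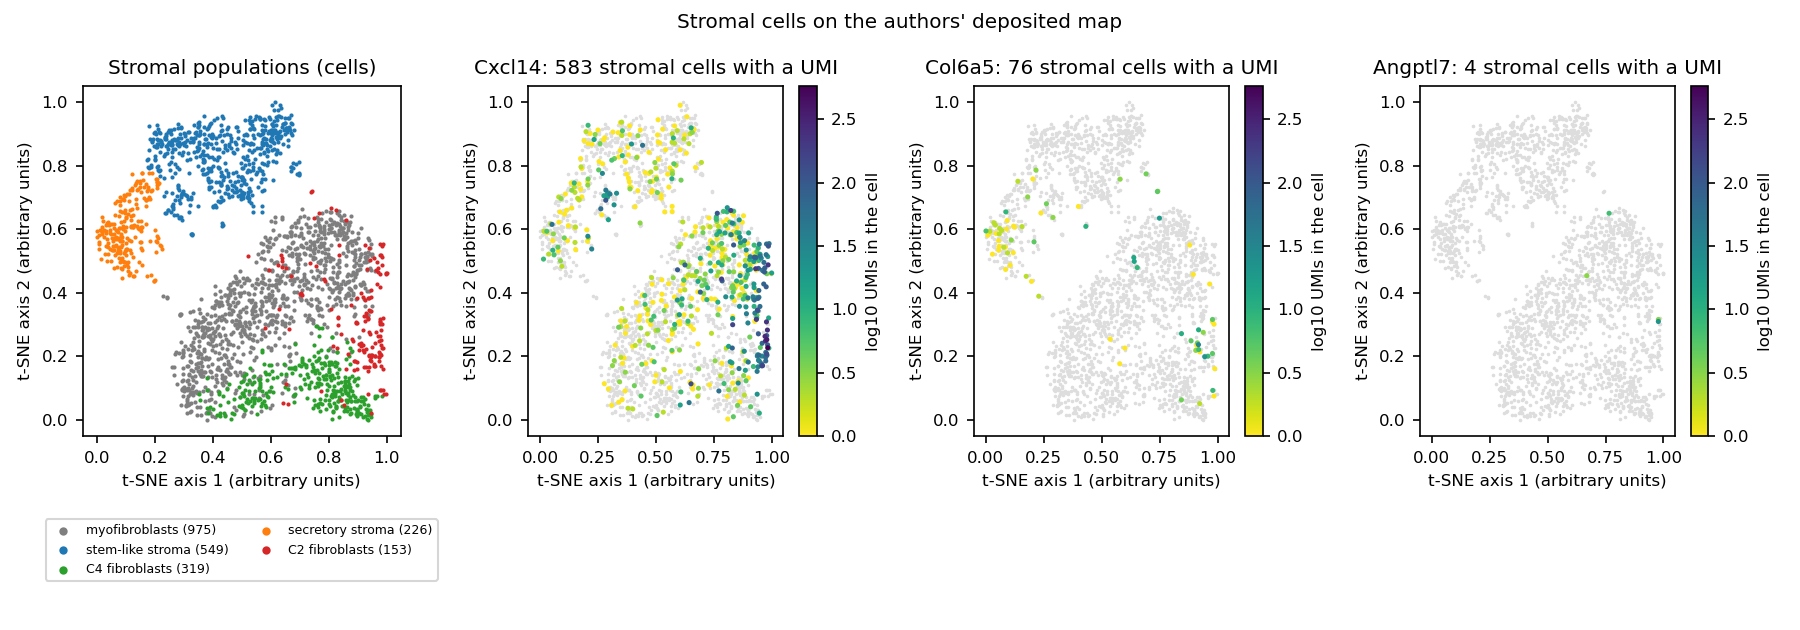
The authors' t-SNE map of the stromal cells (both axes in arbitrary units, 1 point per cell), coloured by population in the first panel and by log10 UMIs of Cxcl14, Col6a5 and Angptl7 in the other panels, with cells without a UMI in pale grey. Of all stromal cells, 583 had a UMI of Cxcl14, 76 of Col6a5 and 4 of Angptl7.

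The labelled cell type was compared with its defining markers first. All 8 genes of the fibroblast marker list had at least 20 UMIs in C2 cells. Decorin (Dcn), a proteoglycan that binds collagen fibrils, was detected in 152 of the 153 cells, and in 99.2% of the 122 cells that could be thinned to 1000 UMIs. The same share was 3.10% of basal cells (median 5654 UMIs) and 7.00% of endothelial cells (median 2590 UMIs), both of which should lack it. The level of Dcn was 17838 UPM in caput cells, 10925 in corpus cells, 10968 in cauda cells and 27411 in vas cells, so it was high in each library and highest in the vas.

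Markers of other cell types were at or near 0 for some lists and not for others. Of 8 immune markers, Ptprc, Csf1r, C1qa and C1qb had 0 UMIs, and the list summed to 10 UMIs. The 5 Schwann cell markers were all at 0. The basal cell genes Krt5 and Trp63 had 0 UMIs, and the endothelial gene Pecam1 had 2. The 10 endothelial markers summed to 105 UMIs (190 UPM), above stem-like stroma at 111 UPM. Levels were 222 UPM in myofibroblasts, 773 in secretory stroma and 1416 in C4 fibroblasts. In the corpus this list was at 553 UPM in C2 cells and 422 in the other stromal cells. The 8 principal cell genes summed to 733 UMIs (1326.5 UPM), above myofibroblasts at 726 UPM and stem-like stroma at 862, and below C4 fibroblasts at 2476 and secretory stroma at 2555. Gpx5 had 2 UMIs, whereas Gpx3 had 435, Crisp1 had 141 in 13 cells and Akr1b7 had 132 in 8 vas cells. Gpx3 was 25.5, 7.94 and 67.1 times the level of the myofibroblasts of the same library in the corpus, cauda and vas. The mesothelial list held 44 UMIs, all of Wt1, while Upk3b and Upk1b were at 0. Its level was 79.6 UPM in C2 cells, against 8.34 in myofibroblasts and 115.5 in secretory stroma, and in the corpus 251.5 UPM against 5.88 in the other stromal cells. The part of these markers in the results was not tested. The 10 smooth muscle genes summed to 2510 UPM in C2 cells, below 24265 in myofibroblasts and 24012 in C4 fibroblasts and above 916 in stem-like stroma and 454 in secretory stroma, and every member of that list was at most 0.5 times the level of the other stromal cells pooled (2.96 lower at the median on the log2 scale). Over all genes with at least 50 stromal UMIs, 10.4% were at most 0.5 times that level, and the median difference was -0.13. Of the pooled UMIs, 3837390 were from myofibroblasts, 1141058 from stem-like stroma, 675606 from secretory stroma and 281066 from C4 fibroblasts. Myofibroblasts therefore weigh most in every comparison with the pooled stroma.

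The rule for this population names 3 marker genes, Cxcl14, Col6a5 and Angptl7. All of them had their highest stromal level in C2 fibroblasts. Cxcl14 and Col6a5 marked different cells, and each cell with Angptl7 carried 1 of those genes as well. Cxcl14 encodes a secreted CXC chemokine, and the gene lies at chromosome 13, 56288643 to 56296811 (GRCm38). It had 6878 UMIs in C2 cells, a level of 12447 UPM (12155 to 12745). The next stromal level was 622 UPM in stem-like stroma, a ratio of 20 (18.5 to 21.6), followed by 598 in C4 fibroblasts, 500 in myofibroblasts and 340 in secretory stroma. Outside the stroma the highest population level was 385 UPM. With single libraries left out the ratio was 9.69 without the cauda, 13.5 without the corpus and 18.4 without the caput. Cxcl14 was detected in 98 C2 cells, and after thinning in 82 of 122 cells (67.2%), against 1.26% of basal cells. In the same counting it was found in 16.5% of myofibroblasts and 20.2% of C4 fibroblasts, and without thinning in 64.1% of C2 cells and 6.325% of basal cells.

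Within C2 cells Cxcl14 depended on the library. It had 0 UMIs in the 4 caput cells, 18 UMIs in 4 of the 36 corpus cells (181 UPM), 5465 UMIs in 64 of the 74 cauda cells (17063 UPM) and 1395 UMIs in 30 of the 39 vas cells (11398 UPM). The cauda and vas were therefore high and the corpus low, with a cauda to corpus ratio of 94.2 (59.6 to 159). The other stromal cells had a ratio of 15.2 for the same pair of libraries. Against the myofibroblasts of the same library, Cxcl14 was 1.54 times as high in the corpus (0.895 to 2.50), 9.77 times in the cauda (9.20 to 10.4) and 78.8 times in the vas (63.5 to 98.9). In the corpus the interval included 1.

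Col6a5 encodes the alpha-5 chain of collagen VI, a microfibrillar collagen, and lies at chromosome 9, 105856070 to 105962463 (GRCm38). Its level was 356 UPM in C2 cells, against 97.7 in secretory stroma, a ratio of 3.65 (2.75 to 4.90), and 1.56 in myofibroblasts. It had 10 UMIs in 3 of the 4 caput cells (954 UPM), 169 UMIs in 18 corpus cells (1700 UPM), 8 UMIs in 2 cauda cells (25.0 UPM) and 10 UMIs in 3 vas cells (81.7 UPM). Here the corpus was high and the cauda and vas low, the opposite of Cxcl14. Without the corpus library the ratio of C2 cells to the highest other stromal population fell to 0.629. Pooled over the caput, cauda and vas, secretory stroma, with 213 of its 226 cells from the vas, thus had the higher level.

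Angptl7 encodes a secreted angiopoietin-like glycoprotein and lies at chromosome 4, 148495181 to 148500462 (GRCm38). It had 35 UMIs in only 4 C2 cells. One caput cell held 22 of them, 2 cauda cells held 10 and 1 corpus cell held 3. The other 4 stromal populations had 0 UMIs, which places C2 at least 5.93-fold above C4 fibroblasts, the shallowest of them. Without the caput library that bound was 1.76. Tnmd, which encodes the tendon membrane protein tenomodulin and lies at chromosome X, 133851008 to 133865577, had a like pattern: 24 UMIs in 6 cells, 15 of them in 2 caput cells, and 1 UMI in the other stroma. All 6 cells also carried Col6a5.

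**Figure D2:**
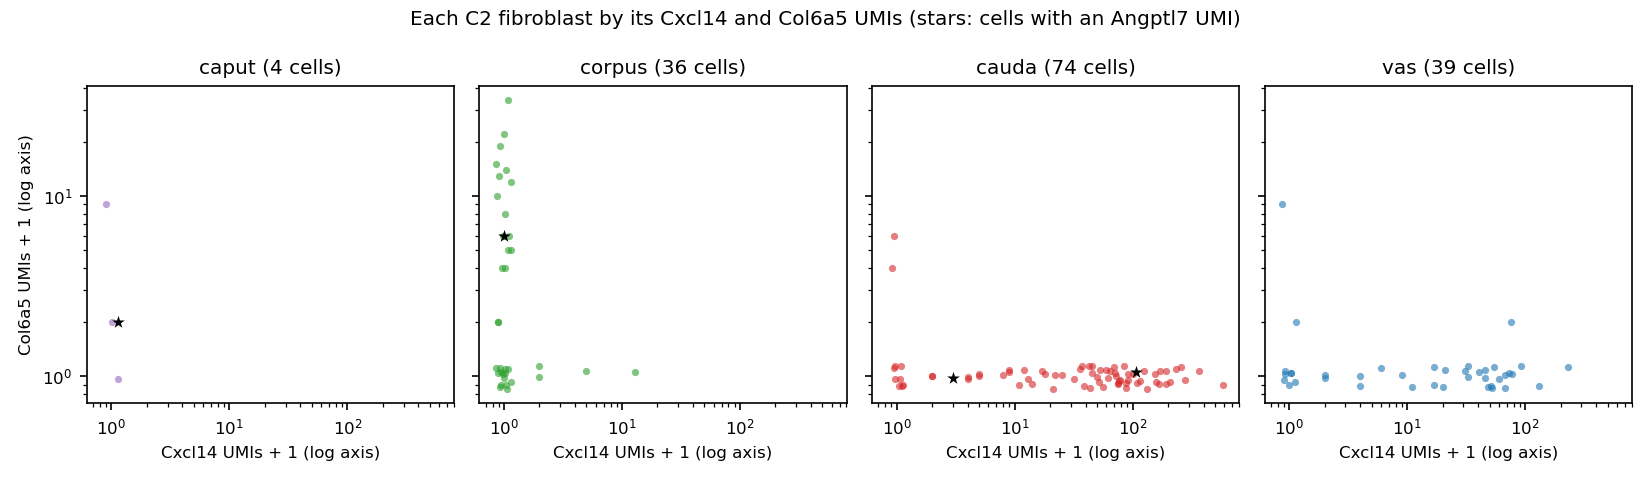
Each C2 cell by its Cxcl14 UMIs plus 1 (x axis, log) and its Col6a5 UMIs plus 1 (y axis, log), in 1 panel per library, with cells at 0 spread slightly and stars for the 4 cells with an Angptl7 UMI. Corpus cells lie along the y axis and cauda and vas cells along the x axis, and 1 vas cell carries both genes.

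Cxcl14 and Col6a5 were hardly ever found in the same cell. Of the 153 cells, 98 had Cxcl14, 26 had Col6a5, and 1 had both, where the product of the shares would give 16.7. After thinning, 0 of 122 cells had both, against a product of 12.8. Within the corpus 4 cells had Cxcl14, 18 had Col6a5 and 0 had both, within the cauda the counts were 64, 2 and 0, and within the vas 30, 3 and 1. The part of the libraries in the pooled count was not tested. A total of 30 cells had a UMI of none of the 3 markers, 14 of them from the corpus. Pooled over libraries, some genes measured in the same cells fell mainly with Cxcl14 or mainly with Col6a5. Of the 81 cells with Sfrp2, a secreted WNT antagonist, 76 had Cxcl14 and 1 had Col6a5. Of the 80 cells with Bmp2, a BMP ligand, 77 had Cxcl14 and 2 had Col6a5. Of the 25 cells with Adam23, an adhesion protein of the ADAM family, 1 had Cxcl14 and 19 had Col6a5. Of the 28 cells with Sult1e1, the estrogen sulfotransferase, 1 had Cxcl14 and 19 had Col6a5. These genes also differed between libraries. The corpus cells held 1 UMI of Sfrp2 and 3 of Bmp2, and Sult1e1 was found in 18 of 36 corpus cells and 2 of 74 cauda cells. The part of the libraries in these pooled counts was not tested. The counts come from the cells of the clusters themselves and are given as a description.

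Across all genes, 58 of the 3647 with at least 20 UMIs in C2 cells were at least 2 times as high as in each other stromal population (1.59%). In the other direction, 14 of the 2252 genes that had 20 or more UMIs in each of those populations were at most 0.5 times their lowest level (0.622%). Genes were ranked by this ratio with any population under 3 UMIs set to the level of 3 UMIs, which lowers the ratio of Arhgdib, C1qtnf6, Tnmd, Gm11744 and Samd5. The 20 genes with the largest ratios included several secreted proteins. After Cxcl14 came 1500015O10Rik, which RefSeq names Ecrg4 and which encodes a secreted peptide precursor (chromosome 1, 43730602 to 43742564), at 476 UPM against 39.1 in C4 fibroblasts (12.2 times, 6.69 to 24.7). It was high in the caput at 4960 UPM, in the corpus at 936 and in the cauda at 356, and low in the vas at 32.7. Igfbp5, an IGF binding protein (chromosome 1, 72858065 to 72874865), reached 1468 UPM against 146 (10.1 times, 7.35 to 14.1). Its C2 level was 1559 UPM in corpus cells, 1861 in cauda cells and 482 in vas cells, and in the vas it did not differ from myofibroblasts beyond counting error (1.23 times, 0.907 to 1.64).

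**Figure D3:**
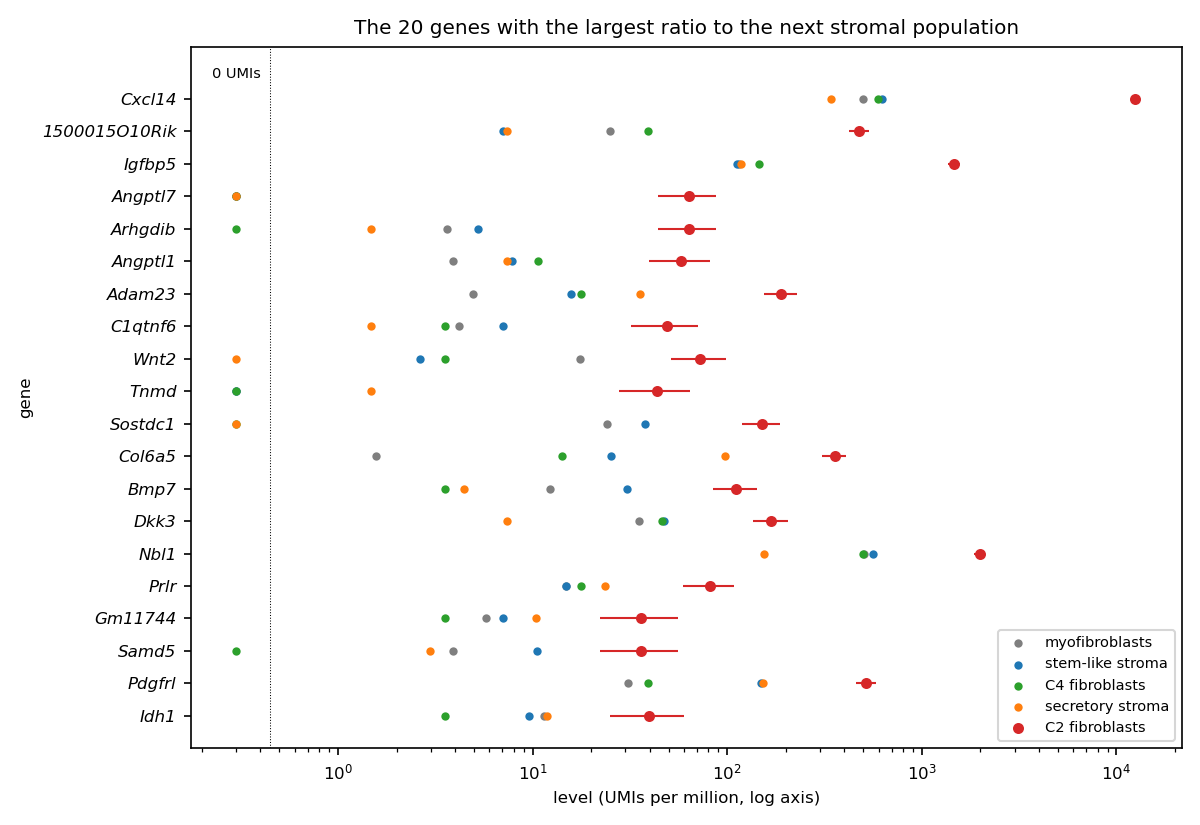
Levels (x axis, UPM, log) of the 20 genes with the largest ratio to the next stromal population, 1 row per gene, with large red points and exact 95% intervals for C2 fibroblasts, smaller points for the other 4 populations, and populations with 0 UMIs left of the dotted line. Cxcl14 stands furthest to the right at 12447 UPM, and Angptl7 has 0 UMIs outside C2.

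Other genes among the 20 were the WNT ligand Wnt2 at 72.4 UPM (4.15 times), the BMP ligand Bmp7 at 110 (3.60 times), and the antagonists Sostdc1 at 150 (3.99 times) and Dkk3 at 168 (3.56 times). Nbl1, a BMP antagonist of the DAN family, was at 1980 UPM against 559 in stem-like stroma (3.54 times, 3.21 to 3.91). Prlr, the prolactin receptor, was at 81.4 UPM (3.44 times). Pdgfrl, a PDGF receptor-like protein, was at 516 UPM (3.38 times). The remaining genes were Arhgdib, Angptl1, Adam23, C1qtnf6, Gm11744 (Prcd in RefSeq), Samd5 and Idh1, with 20 to 104 UMIs each. Several ratios rested on a single library. Without the corpus, Adam23 fell from 5.30 to 1.36, Angptl1 from 5.43 to 0.843, Arhgdib from 5.93 to 1.78, C1qtnf6 from 4.58 to 1.31, Gm11744 from 3.39 to 1.31, Samd5 from 3.39 to 1.78, Idh1 from 3.36 to 1.41 and Prlr from 3.44 to 1.12. Without the cauda, Bmp7 fell from 3.60 to 1.10, Samd5 to 1.79, Dkk3 from 3.56 to 2.19 and Nbl1 from 3.54 to 1.31. Of the 58 genes, 45 remained without the caput, 37 without the corpus and 31 without the cauda.

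Of 8 fibrillar collagen genes, 7 had at least 20 UMIs in C2 cells, 4 were at least 2 times as high as in each other stromal population, and 6 were at least 2 times as high as in the other stromal cells pooled. The last threshold was met by 4.13% of all genes, and the median of the list was 1.77 on the log2 scale against -0.13 over all genes. Col1a1 was at 4079 UPM in C2 cells against 1222 in stem-like stroma (3.34 times, 3.12 to 3.57). Col3a1 was at 2878 UPM (2.64 times, 2.45 to 2.85) and Col1a2 at 4072 UPM (2.17 times, 2.04 to 2.30). The collagens were graded along the tract within C2 cells. Col1a1 was at 7727 UPM in caput cells, 7455 in corpus cells, 4046 in cauda cells and 1111 in vas cells, and Col3a1 at 6868, 5362, 2685 and 1021. The vas cells were therefore the lowest for both genes, and Col3a1 there was only 1.36 times the level of vas myofibroblasts (1.11 to 1.67).

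Among the other matrix lists, 4 of 9 measured small proteoglycans, 9 of 23 other matrix proteins, 6 of 14 collagen processing genes, 3 of 16 elastic fibre genes and 3 of 10 other interstitial collagens were at least 2 times as high as in the pooled stroma. Sparc, a collagen-binding glycoprotein, was at 10639 UPM in C2 cells (2.60 times the highest other population), and Mgp, the matrix Gla protein that restrains calcification, was at 10605 UPM (2.26 times). Mgp was high in every library, at 13069 UPM in caput cells, 8149 in corpus cells, 9613 in cauda cells and 14984 in vas cells. Pcolce, an enhancer of procollagen processing, was at 1370 UPM (2.87 times). Fmod and Fbln5, a proteoglycan and an elastic fibre protein, were at 331 and 329 UPM (2.12 and 2.01 times), and both rested on the corpus, without which the ratios were 1.17 and 1.39. Of the 4 collagen VI chains with at least 50 stromal UMIs, 4 were at least 2 times as high as in the other stromal cells pooled. Col6a1 and Col6a2 exceeded secretory stroma by 1.55 and 1.38 times. Dcn was lower in C2 cells than in secretory stroma, with a ratio of 0.772. Lum, another proteoglycan, chosen after its values were seen, had a ratio of 0.177. Basement membrane genes showed no such shift: of 19 measured, 0 were at least 2 times as high as in the pooled stroma, 4 were at most 0.5 times as high, and the median was -0.13.

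Signalling proteins did not move as a block. Among WNT antagonists, 7 of 10 measured genes were at least 2 times as high as in the pooled stroma, with a median of 1.54 on the log2 scale. Of the 7 with at least 20 UMIs in C2 cells, 4 were at least 2 times as high as in each other population, against 1.59% of all genes. Sfrp2 (chromosome 3, 83765750 to 83774314) was at 1645 UPM against 724 in stem-like stroma (2.27 times, 2.07 to 2.50), and Dkk2 at 214 UPM against 94.7 (2.26 times). Sfrp2 had 0 UMIs in the caput, 10.1 UPM in corpus cells, 2479 in cauda cells and 931 in vas cells. It was 3.29 times the myofibroblast level in the cauda (2.95 to 3.66) but 0.623 times in the vas (0.509 to 0.758), and without the cauda library it was 0.701 times the highest other stromal population. Sfrp1 had the reverse order, with 4388 UPM in caput cells, 1449 in corpus cells, 496 in cauda cells and 147 in vas cells. Of 10 WNT ligands and R-spondins measured, 3 were at least 2 times as high, with Wnt2 and Wnt16 above each other population. Without the cauda library Wnt16 was 0.716 times the highest other population.

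Among BMP and TGF-beta ligands, 2 of 9 measured genes were at least 2 times as high, 2 were at most 0.5 times as high, and the median was 0.03. Bmp2 (chromosome 2, 133552159 to 133562896) was at 966 UPM against 301 in stem-like stroma (3.21 times, 2.80 to 3.69). Its C2 levels were 0 UPM in the caput, 30.2 in corpus cells, 1433 in cauda cells and 588 in vas cells, highest in the cauda, and without that library the ratio was 1.07. Bmp4 was at 212 UPM, below C4 fibroblasts at 352. Of 9 measured genes in the list of BMP antagonists, which did not hold Nbl1, 0 were at least 2 times as high and 2 were at most 0.5 times as high. Follistatin (Fst) was at 794 UPM against 6696 in secretory stroma.

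Of 14 measured chemokines, 2 were at least 2 times as high as in the pooled stroma and 5 were at most 0.5 times as high, with a median of -0.71. Ccl2, a monocyte attractant, was at 1781 UPM in C2 cells against 30047 in secretory stroma and 395 in myofibroblasts. Cxcl1 was at 1632 UPM against 16693, and Ccl7 at 903 against 12455. Of 9 cytokines measured, 4 were at most 0.5 times as high and 0 were at least 2 times as high. Il6 was at 574 UPM in C2 cells against 7180 in secretory stroma and 5291 in C4 fibroblasts.

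Complement genes were high in C2 cells and in secretory stroma. Of 9 measured, 5 were at least 2 times as high as in the pooled stroma, with a median of 1.26, and 0 exceeded each other population 2-fold. Serping1, the C1 inhibitor, was detected in 147 C2 cells at 3855 UPM, against 2630 in secretory stroma. C7, a component of the lytic complex, was at 590 UPM against 1309 in secretory stroma, and C3 at 204 against 320. Both were highest in the caput and corpus, with C3 at 1622 UPM in the caput, 835 in corpus cells, 31.2 in cauda cells and 24.5 in vas cells.

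The word ligand-rich in the name of this population was compared with the study's own list of ligands and receptors, which was drawn up on these cells and is not independent of them. After thinning to 1000 UMIs, 54 of 225 ligands were found in at least 20% of C2 cells. The counts were 39 in myofibroblasts, 49 in stem-like stroma, 57 in C4 fibroblasts and 56 in secretory stroma, so C4 fibroblasts and secretory stroma had more. Without thinning the counts were 107, 94, 77, 51 and 99 in the same order, and C2 was the highest. Ligands took 9.03% of the UMIs of C2 cells, above 4.35% in myofibroblasts, 7.82% in stem-like stroma and 7.50% in C4 fibroblasts, and below 15.5% in secretory stroma. Of 212 receptors, 16 were found in at least 20% of C2 cells, against 14 to 24 in the other populations. The list does not hold Cxcl14. Within it, the ligand whose share in C2 cells stood furthest above the next population was Bmp2, in 40.2% of thinned C2 cells against 20.9% of stem-like stroma, with 0.804% in basal cells. Col3a1 followed at 74.6% against 56.5%, and Mmp2, the gelatinase, at 50.0% against 33.4%.

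Against each other stromal population in turn, the comparisons differed in size. Of 9495 genes tested against myofibroblasts, 363 were higher in C2 cells (3.82%) and 1062 lower (11.2%). Against stem-like stroma, 313 of 6074 were higher (5.15%) and 713 lower (11.7%). Against C4 fibroblasts, 495 of 3945 were higher (12.5%) and 835 lower (21.2%). Against secretory stroma, 713 of 4278 were higher (16.7%) and 443 lower (10.4%). Here and between libraries, a gene was called at a 2-fold difference with at least 20 UMIs in the higher group. Comparisons of gene lists with the pooled stroma instead used genes with at least 50 stromal UMIs.

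Among the largest ratios to myofibroblasts were those of Col6a5 (228 times, 103 to 629), C3 (196 times, 74.5 to 732), Sult1e1 (187.5 times), Lpl (174 times) and Pi16 (86.8 times), a marker of adventitial fibroblasts. Col6a5, C3 and Sult1e1 were found in only 26, 23 and 28 of the 153 C2 cells. In the cauda, Col6a5 and Sult1e1 were each found in 2 of 74 C2 cells, so these ratios do not describe the whole population. In the opposite direction stood Cnn1, a smooth muscle calponin, which was 25.9 times as high in myofibroblasts (17.3 to 41.0), and Tnnt2, with 0 UMIs in C2 cells and 862 in myofibroblasts. The 7 adventitial markers, Pi16 among them, summed to 914 UPM in C2 cells, 275 in myofibroblasts and 530 in C4 fibroblasts. Stem-like stroma at 1363 and secretory stroma at 1141 were higher. Of 6 measured, 2 were at least 2 times as high as in the pooled stroma, with a log2 median of -0.14. Against stem-like stroma, Agtr2, an angiotensin receptor, had 77 UMIs in C2 cells and 0 in stem-like cells (at least 53.0-fold). Of these UMIs 75 were from the cauda and 1 from the vas, the source of 517 of the 549 stem-like cells. The other stromal cells were at 448 UPM in the cauda, above C2 cells at 234, and at 0 in the vas. The part of the library in this contrast was not tested. Lgr5, the R-spondin receptor that marks stem-like stroma, was 40.6 times as high there, at 367 UPM against 9.05, and Angpt1 was 15.0 times as high.

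Against secretory stroma, Wfdc1 was 75.8 times as high in C2 cells (25.5 to 371), Gatm 50.7 times, Cxcl14 36.6 times and Sfrp2 34.7 times. Tac1, a tachykinin precursor, was 218 times as high in secretory stroma, with 1 UMI in C2 cells, and Tslp 59.8 times. Saa3 and Cxcl5 had 0 UMIs in C2 cells. Against C4 fibroblasts, the genes highest in C2 were Inmt (35.9 times, 9.745 to 299), Col6a5, Cxcl14, Dkk2 and Sult1e1. Of the 141 Inmt UMIs of C2 cells, 129 were from the vas, as were only 37 of the 319 C4 cells. Within the vas, Inmt was at 1054 UPM in C2 cells and 1039 in the other stromal cells. The genes highest in C4 were Spag11b (265 times) and Gpx5 (91.4 times), which belong to principal cells, together with Selp, an endothelial adhesion receptor with 0 UMIs in C2. C4 fibroblasts had a median of 670 UMIs per cell, and the authors' removal of ambient RNA had taken 12.1% of their UMIs against 2.93% of those of C2 cells. The part of depth, ambient RNA and library in that comparison was not tested.

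The genes lower in C2 cells than in every other stromal population included Mustn1, a muscle-associated gene, at 12.7 UPM against 36.8 in the population with the lowest other level. Synpo2, an actin-binding protein of muscle, was at 29.0 UPM against 79.9, and Lama4, a laminin chain, at 10.9 against 24.5. The other named genes of this kind were Ubald1, Slc38a1, Hilpda, Homer1, Pde3b and Birc2, each with 6 to 25 UMIs in C2 cells. Of all 14 genes, 9 remained without the caput, 2 without the corpus and 9 without the cauda, and 5 remained in cells with at least 1000 UMIs.

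The libraries differed within the population. The corpus, cauda and vas, each with at least 20 C2 cells, were compared. Between corpus and cauda, 154 of 2329 genes were higher in the corpus (6.61%) and 409 higher in the cauda (17.6%). Between corpus and vas, 171 of 1014 were higher in the corpus (16.9%) and 143 in the vas (14.1%). Between cauda and vas, 345 of 2301 were higher in the cauda (15.0%) and 81 in the vas (3.52%). Median UMIs per C2 cell were 2068 in corpus cells, 4195 in cauda cells and 3125 in vas cells, and summed UMIs were 99401, 320293 and 122395, so a gene passed the 20 UMI minimum most easily in the cauda.

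The corpus set held Sult1e1 at 2193 UPM against 18.7 in the cauda (117 times, 52.9 to 322.5), Col6a5, Adam23 at 825 against 34.3, C3, Angptl1 at 231 against 9.37, and Pi16 at 614 against 84.3. Sult1e1, which sulfates and so inactivates estrogens, was found in 18 of the 36 corpus cells and in 2 of the 74 cauda cells. The other stromal cells had 20.3 UPM in the corpus and 19.9 in the cauda, a ratio of 1.02. Cd34, a surface marker of stromal progenitors that the paper also lists for its endothelial cells, was at 372 UPM in the corpus and 9.37 in the cauda, in 20 corpus cells. The endothelial marker list, which does not hold Cd34, was at 553 UPM in corpus C2 cells and 109 in cauda C2 cells. The part of endothelial RNA in the Cd34 level was not tested.

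The cauda and vas set held Cxcl14, Sfrp2, Bmp2, Fst at 940 UPM in the cauda and 1119 in the vas against 10.1 in the corpus, and Sostdc1, with 0 UMIs in the corpus, 144 UPM in the cauda and 302 in the vas. Wnt2 was at 10.1 UPM in corpus cells, 90.5 in cauda cells and 81.7 in vas cells, and Dkk2 at 30.2, 140.5 and 572. For Sfrp2 and Fst the other stromal cells moved the same way, from 21.4 to 818 UPM and from 197 to 1550 UPM between corpus and cauda. They did so for Bmp2 as well, from 170 UPM in the corpus to 530 in the cauda. Their Dkk2 level was 0.535 UPM in the corpus and 53.2 in the vas. Hoxa10, a homeobox gene of the posterior axis, was at 0 UPM in the caput, 20.1 in corpus cells, 231 in cauda cells and 237 in vas cells, and in each of the last 3 libraries it did not differ from the myofibroblasts of that library beyond counting error. Other genes set the cauda apart from the vas. Tagln was at 151 UPM in corpus cells, 1046 in cauda cells and 40.8 in vas cells. Inmt had 0 UMIs in the corpus and was at 37.5 UPM in the cauda and 1054 in the vas. The other stromal cells differed in the same direction for both genes. Their Tagln level was 9157.5 UPM in the cauda and 1161 in the vas, and their Inmt level 52.7 and 1039.

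**Figure D4:**
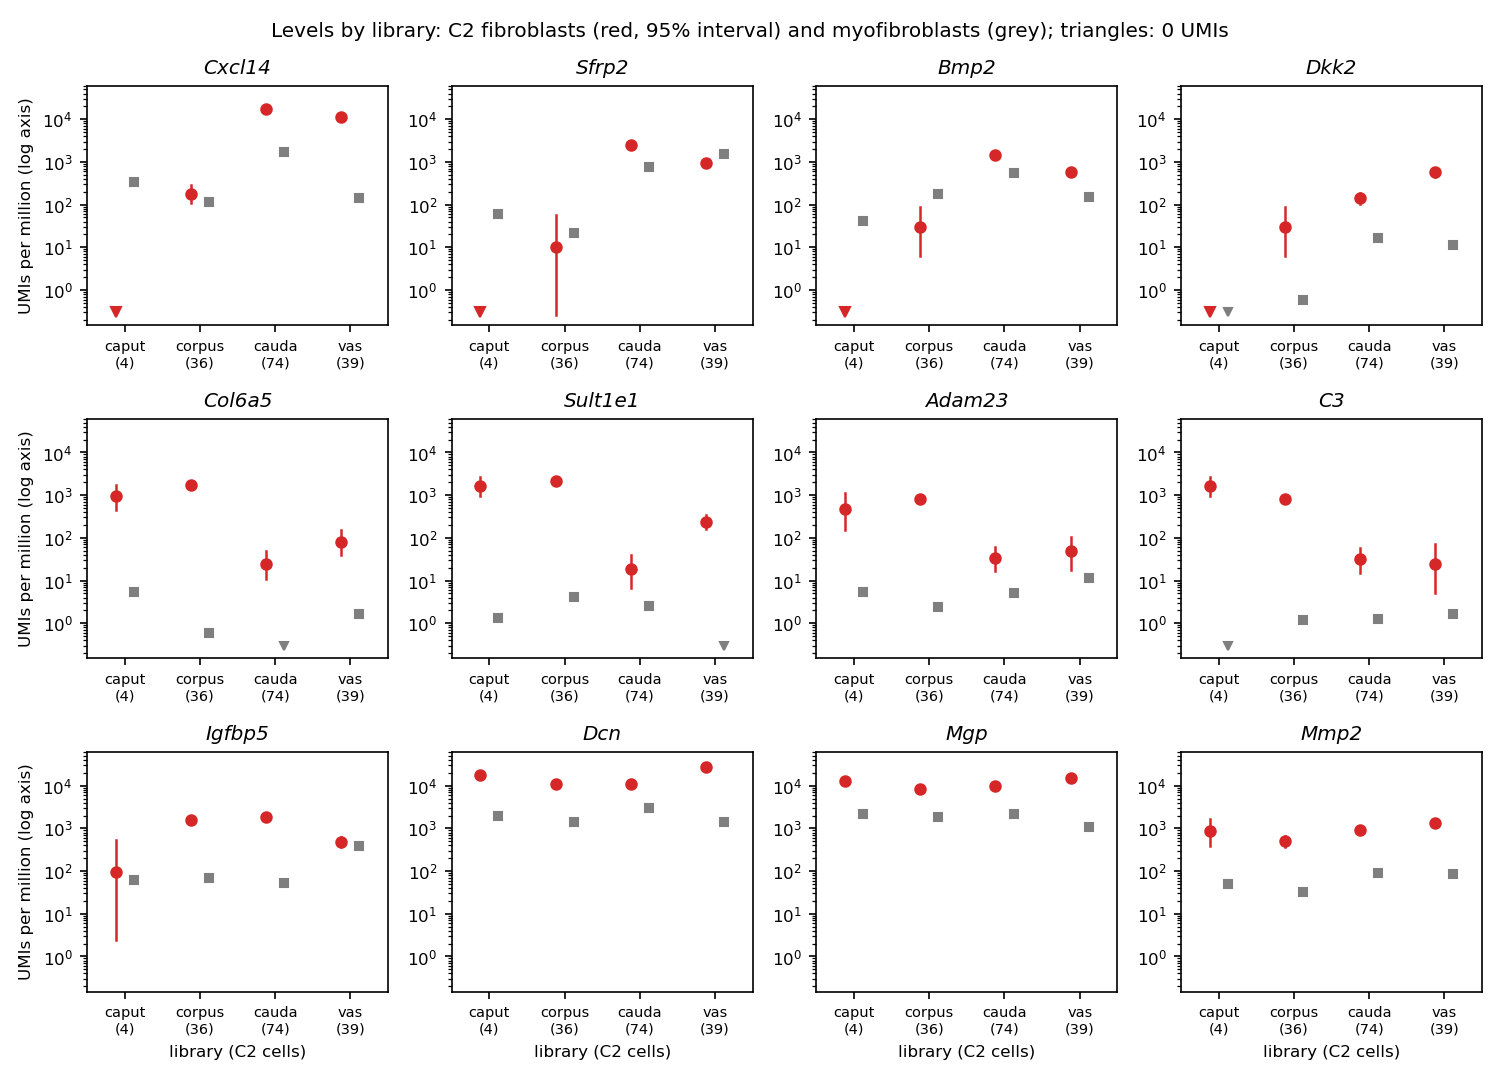
Level of 12 genes (y axis, UPM, log) by library (x axis, number of C2 cells in brackets), as red points with exact 95% intervals for C2 fibroblasts and grey squares for the myofibroblasts of the same library, with triangles for 0 UMIs. In C2 cells the 4 genes of the top row were highest in the cauda or vas, the 4 of the middle row were highest in the caput or corpus, and Dcn and Mgp were high in all 4 libraries.

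Some of the vas cells stood apart. In the authors' clustering of all cells, before the stroma was re-clustered, 73 C2 cells lay in cluster 15, 68 in cluster 4, 8 in cluster 13 and 4 in cluster 7. The 5 vas cells of cluster 13 held 1315 of the 1332 vas UMIs of Ctla2a, a cysteine protease inhibitor, with 89 to 526 UMIs in each cell. The 23 vas cells of cluster 15 held 9 and the 10 of cluster 4 held 8. The same 5 cells had 29 UMIs of Sult1e1, 42 of Dpep1 and 22 of Aspn, the whole vas count of each, and 0 UMIs of Cxcl14, while the other vas cells held the 1395 Cxcl14 UMIs of that library. Secretory stroma, nearly all from the vas, had Ctla2a at 13079 UPM. Ctla2a, Dpep1 and Aspn were chosen for naming after their values were seen. Without these 5 cells, 57 genes in place of 58 were higher than in each other stromal population, and 73 in place of 81 were higher in the vas than in the cauda.

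Within a library, C2 cells were compared first with all other stromal cells of that library. In the corpus, 180 of 7278 genes were higher in C2 (2.47%) and 563 lower (7.74%). In the cauda, 226 of 5145 were higher (4.39%) and 778 lower (15.1%), and in the vas 96 of 8181 were higher (1.17%) and 460 lower (5.62%). Myofibroblasts, with 162 to 420 cells in each library, were added as a reference after the data were seen. Against them, 199 of 6862 genes were higher in the corpus (2.90%) and 551 lower (8.03%). In the cauda the counts were 257 (5.32%) and 725 (15.0%) of 4828, and in the vas 184 (4.15%) and 902 (20.3%) of 4439. Calls in the vas thus depended most on the reference.

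A set of 63 genes was higher in C2 cells than in the myofibroblasts of the same library in the corpus, the cauda and the vas, 10.6% of the 597 genes that had 20 or more UMIs in C2 cells of each. The genes with the largest lowest ratio were C7, at 89.6 times in the corpus, at least 67.0-fold in the cauda and 21.1 times in the vas, and Clec3b (tetranectin), at 128, 20.6 and 12.4 times. Mmp2 was at 15.4, 10.7 and 15.7 times, and its levels in C2 cells were 493, 937 and 1315 UPM. Serpinf1, the anti-angiogenic factor PEDF, was at 296, 6.52 and 16.9 times. Mgp was at 4.44, 4.52 and 13.8 times, Pcolce at 8.63, 8.47 and 4.43 times, Col6a1 at 8.82, 4.46 and 4.03 times, and Dcn at 7.90, 3.58 and 19.4 times. Col1a1 was also in this set, at 20.2, 8.94 and 2.42 times, and Cxcl14 was not, since the corpus ratio was 1.54. Clec3b was chosen for naming after its values were seen.

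A second set of 109 genes was lower in C2 cells than in the myofibroblasts of each of the 3 libraries, 2.78% of the 3927 genes that had 20 or more UMIs in those myofibroblasts. Smooth muscle genes led it. Cnn1 was at 0.0135 times the myofibroblast level in corpus cells, 0.0282 in cauda cells and 0.0460 in vas cells. Myh11, the smooth muscle myosin heavy chain, chosen after its values were seen, was at 0.0786, 0.0740 and 0.0734 times. Acta2 was at 0.0583, 0.106 and 0.0449 times. Tagln was at 0.0514, 0.107 and 0.00988 times. The set was chosen by its ratio in each of the 3 libraries, so presence in each of them is no further result.

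**Figure D5:**
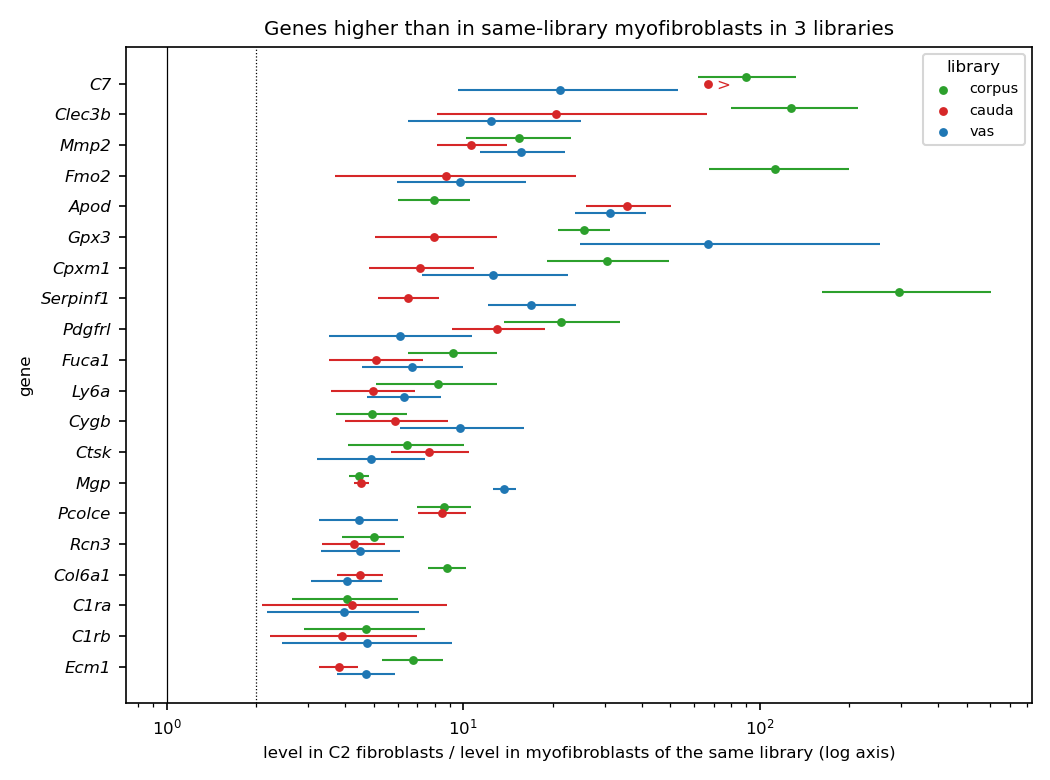
Ratio of C2 fibroblasts to the myofibroblasts of the same library (x axis, log) with exact 95% intervals for 20 of the 63 genes higher in the corpus, cauda and vas, where the solid line marks 1, the dotted line 2 and an arrowhead a lower bound. The genes were kept for a ratio of at least 2 in each library, so no point can lie left of the dotted line. They run from C7 at the top to Ecm1 at 6.76, 3.79 and 4.70 times.

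Of 6 measured genes in the list of hormone receptors and steroid enzymes, 3 were at least 2 times as high as in the pooled stroma, with a median of 0.74 on the log2 scale, and 2 were at least 2 times as high as in each other population. Of 7 retinoid genes, 2 were at least 2 times as high as in the pooled stroma. Prlr was at 251.5 UPM in the corpus cells, 40.6 in the cauda and 57.2 in the vas, with 0 UMIs in the caput. Aldh1a1, a retinaldehyde dehydrogenase, was at 355 UPM in C2 cells against 132 in stem-like stroma (2.70 times, 2.17 to 3.36). From caput to vas it was at 1336, 573, 209 and 474 UPM, and the caput value came from 1 cell. Srd5a2, a steroid 5-alpha reductase, had 23 UMIs (2.92 times, 0.999 to 11.6), an interval that included 1, and without the cauda its ratio was 0.805. Esr1, an estrogen receptor, had 9 UMIs.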

How the data were processed

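Single-cell suspensions, depleted of sperm, from 4 regions were sequenced as 1 droplet library each. The authors aligned reads to mm10 with HISAT2 2.0.4 (submitters' processing notes), counted UMIs against RefSeq genes with ESAT, which left out reads mapping to several places, merged UMIs 1 mismatch apart, limited UMIs per barcode, removed ambient RNA with a modified SoupX, and clustered cells before re-clustering each broad population. The deposited values used here are the counts of UMIs per gene and cell, 16892 genes in 8880 cells, with the authors' cell table. One map shows the authors' t-SNE coordinates, a score with no unit, as deposited.

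Counts were summed per population and library with Python 3.11.15, numpy 2.4.6, scipy 1.17.1 and pandas 2.3.3. Levels are UMIs per 1000000. A gene was called at a 2-fold difference with at least 20 UMIs in the higher group, and groups under 3 UMIs were set to 3. Against the pooled stroma, genes with at least 50 stromal UMIs were measured, with a small constant added to both counts in place of those limits. Exact Poisson, conditional binomial and Clopper-Pearson intervals at 95% cover counting error only. Shares of cells were thinned to 1000 UMIs (122 of 153 C2 cells kept, 31 left out). Doublets were called per library by nearness to simulated ones, up to a number set by an assumed rate, and kept. Leaving them out was an alternative. Libraries held 4408989 to 10744928 UMIs. With 1 library a region no test was run. The script that makes the calls was checked on simulated counts with known folds.

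Genes were named by rule: the 3 markers, the 20 with the largest and 10 with the smallest ratio to the other stromal populations, the 5 at each end of each pairwise and library comparison, leading members of 30 gene lists and 17 marker lists, and stromal genes the study names. A further 22 genes were named after their values were seen. The members and lists were chosen with earlier results of these data known. Of 513 list symbols, 8 were not matched. RefSeq positions are on GRCm38. Alternatives changed the fold, UMI minimum, averaging, depth filter, thinning and denominator, left out doublets or single libraries, and, chosen after seeing the data, left out 5 vas cells or used myofibroblasts of the same library as the reference. Some results are not reported here.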

Additional observations from a re-analysis of the deposited data

Results flagged for a closer look

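For 18 of the 238 named genes the level in C2 fibroblasts was above that of the myofibroblasts of the same library in 1 region and below it in another, with counting intervals that excluded 1 on both sides. Many of the named genes were chosen for large ratios. The count was not made over all genes, so it does not show whether such reversals are unusual. The difference between regions was not tested, since each region has 1 library. Ratios are of levels, C2 over myofibroblasts. Ctgf, Ifit1, Isg15 and Serpine2 were named after their values were seen.

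A first group was above myofibroblasts in the vas or cauda and below them in the corpus. Bmp2 was at 3.81 in the vas and 0.172 in the corpus, and Bmp4, another BMP ligand, at 4.62 and 0.283. Cxcl10, an interferon-induced chemokine, was at 3.59 in the vas and 0.263 in the corpus. Il11, a cytokine of the IL-6 family, was at 2.96 in the cauda and 0.0642 in the corpus. The interferon-induced genes Isg15 and Ifit1 were at 3.02 and 6.37 in the cauda and at 0.106 and 0.231 in the corpus. Serpine2, a protease inhibitor, was at 3.33 in the cauda and 0.22 in the corpus, and Moxd1 at 2.08 and 0.48. The transcription factor gene Tcf21 was at 3.15 in the vas and 0.331 in the corpus, and Gatm, an enzyme of creatine synthesis, at 3.31 and 0.234.

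Another group was above myofibroblasts in the corpus. Fmod was at 18.8 in the corpus and 0.331 in the vas, and Ctgf, a matricellular protein, at 5.96 and 0.311. Gas1 was at 3.93 in the corpus and 0.285 in the vas, Tm4sf1 at 4.5 and 0.168, and the chemokine Cxcl2 at 2.11 and 0.142. Chrdl1, a BMP antagonist, was at 2.06 in the corpus and 0.292 in the cauda. Between vas and cauda, Crisp1, a principal cell gene, was at 2.65 in the vas and 0.333 in the cauda, and Tspan8 at 4.9 in the cauda and 0.146 in the vas.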

How the results depend on the processing

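No paired analysis was possible because each region has 1 library and no test was run. The results rest on 1 library per region, 153 cells and, in the caput, 4 cells, so region and library cannot be told apart. Of 714 ratios of named genes under settings other than leaving out a library, 620 moved by less than their error, 94 moved by more and 0 changed direction. Of 714 with a library left out, 446 moved by less, 260 by more and 8 changed direction. For these ratios a change of direction was counted only where the main ratio was at least 2 or at most 0.5. A ratio between those limits that crossed 1 was counted by its error alone. Without the vas library, stem-like stroma and secretory stroma fell under 50 cells, and comparisons that need them gave no value. The cause of the changes below was not tested.

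At 1.5-fold, 127 genes were higher and 44 lower than in each other stromal population. Higher and lower counts were then 649 and 2384 against myofibroblasts, 636 and 1444 against stem-like stroma, 792 and 1341 against C4 fibroblasts, and 1353 and 786 against secretory stroma. At 4-fold they were 10 and 0, 139 and 173, 100 and 117, 108 and 250, and 196 and 136 in the same order. With at least 10 UMIs, 41 genes were lower than in each population, 548 higher than in myofibroblasts, 537 higher than in stem-like stroma, 1408 lower than in C4 fibroblasts and 1331 higher than in secretory stroma. With at least 50 UMIs, 36 and 2 were higher and lower than in each, 211 higher than in myofibroblasts, 163 and 293 against stem-like stroma, 310 and 332 against C4 fibroblasts, and 286 and 243 against secretory stroma. Averaging over cells gave 25 genes lower than in each, and cells with at least 1000 UMIs gave 6, with 395 lower than in C4 fibroblasts and a cauda share of 5.96%. As shares of stroma the libraries gave 1.54%, 5.46%, 25.6% and 3.84%. Ligands and receptors in C2 cells numbered 107 and 47 without thinning, 33 and 5 at 500 UMIs, and 90 and 32 at 10% of cells, and receptors 6 at 30%. Against vas myofibroblasts 184 genes were higher and 902 lower.

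Leaving out each library gave 47 to 54 genes higher and 6 to 29 lower than in each population. The ranges were 291 to 351 and 893 to 1260 against myofibroblasts, 216 to 315 and 681 to 781 against stem-like stroma, 354 to 498 and 410 to 794 against C4 fibroblasts, and 360 to 703 and 442 to 501 against secretory stroma, with 53 to 60 ligands and 13 to 18 receptors. Some ratios to the highest other stromal population changed direction. Angptl1 (0.843), Col6a5 (0.629) and Thbs2 (0.469) did so without the corpus, and their highest values were 10.4, 8.25 and 5.64, all without the cauda. Col8a1 (0.101), Sfrp2 (0.701), Srd5a2 (0.805) and Wnt16 (0.716) did so without the cauda, with highest values of 2.07, 2.31, 3.11 and 2.39. Tnfaip2, low otherwise (0.0562 at the lowest), was at 1.09 without the cauda. Summed lists also changed direction, as ratios to the other stromal cells. Angiopoietins were at 0.905 averaged over cells, and at 0.736 (without the corpus), 0.988 (without the caput) and 2.06 (without the cauda). Immediate-early genes were at 1.07 without the caput, 1.02 without the cauda and 0.798 without the vas. Without the cauda, chemokines were at 0.977 (4.77 without the vas), BMP targets at 0.860 (1.78 without the vas), the hedgehog pathway at 1.04 (0.695 without the corpus) and stromal transcription factors at 1.01 (0.917 without the caput). Without the vas, BMP antagonists were at 1.15 (0.4885 without the cauda) and growth factor and cytokine receptors at 1.01 (0.754 without the corpus).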
